A study of Tachysurus vachellii and Tachysurus fulvidraco x Tachysurus vachelli and Tachysurus fulvidraco with 9 samples.

Results

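The miR-17-92 and miR-15/16 families are microRNAs best known for opposite effects on the cell cycle, and their levels were measured here in the liver of a hybrid catfish and both of its parents. Members were chosen by name: every entry whose name, after the species prefix, is miR-15, miR-16, miR-17, miR-18, miR-19, miR-20, miR-25, miR-92, miR-93, miR-106, miR-363 or miR-457, in any arm or copy, without the opposite-arm predictions marked p5 or p3. This gave 43 of 888 table entries and 37 of 728 distinct mature sequences, 23 in the 17-92 group and 14 in the 15/16 group (miR-15, miR-16 and miR-457). There was an entry for 11 of the 12 families, all but miR-363. A total of 29 members (18 and 11 in the respective groups) had a value of 10 or more in 3 or more libraries and were tested, and 8 did not. Small RNAs were sequenced from whole liver of juvenile fish in 9 libraries, with 3 per line: the parents P. vachelli and P. fulvidraco, and their hybrid Huangyou-1, from P. fulvidraco mothers and P. vachelli fathers. All lines were bred by artificial fertilization after hormone injection, hatched at 28 °C and reared at 600 fish per line in 3 aquaria. The labels do not say whether a library is 1 fish, 1 aquarium or a pool, so p-values measure only the spread between these libraries. The title of the study concerns heterosis, and the comparisons ask how the hybrid stands relative to each parent and to their mean.

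As background, vertebrate genomes carry miR-17, miR-18, miR-19, miR-20 and miR-92 together on 1 primary transcript, the miR-17-92 cluster, with paralogous clusters that hold miR-25, miR-93 and miR-106. In mammals MYC and E2F factors switch the cluster on, and its products lower brakes on growth: miR-17, miR-20, miR-93 and miR-106 act on the cyclin-dependent kinase inhibitor CDKN1A, and miR-25 and miR-92 on further inhibitors of proliferation. The miR-15/16 family does the reverse and represses D- and E-type cyclins, so that cells stay in G1. Its relative miR-457 was described in zebrafish. A mature miRNA finds its targets mainly through the seed, bases 2 to 8 from the 5′ end, so members that share a seed share most predicted targets.

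The sequences below show how the members fall into seed classes. Letters are those of the deposited table, with T for U, printed 5′ to 3′ with the seed in capitals. Within the 17-92 group, the class of miR-17, miR-20, miR-93 and miR-106 shares 1 seed, miR-18 and miR-19 have their own, and miR-25 shares its seed with miR-92.
ccr-miR-17-5p: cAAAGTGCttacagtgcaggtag
ccr-miR-17-5p_1ss1CT: tAAAGTGCttacagtgcaggtag
ssa-miR-20a-5p: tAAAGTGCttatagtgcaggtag
dre-miR-93_R+1: aAAAGTGCtgtttgtgcaggtag
cgr-miR-106b-5p_R-1: tAAAGTGCtgacagtgcagat
dre-miR-18a_R+1: tAAGGTGCatctagtgcagatag
ssa-miR-19c-3p: tGTGCAAAtccatgcaaaactg
dre-miR-19d-3p_R-1: tGTGCAAAcccatgcaaaactg
aca-miR-19a-3p_R+1: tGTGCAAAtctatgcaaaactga
bta-miR-25: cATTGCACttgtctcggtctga
xtr-miR-92a_R+1: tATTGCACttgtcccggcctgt
ssa-miR-92b-3p: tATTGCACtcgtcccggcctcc
Counted from 1 at the 5′ end, ccr-miR-17-5p and ccr-miR-17-5p_1ss1CT differ by C1T alone, outside the seed, and the latter differs from ssa-miR-20a-5p by C12T. From xtr-miR-92a_R+1 to ssa-miR-92b-3p the changes were T10C, G21C and T22C, all outside the seed.

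In the 15/16 group, 7 of 14 sequences carried 1 shared seed at bases 2 to 8. The following are shown because the 5′ end, which sets the seed, varied among them.
fru-miR-16: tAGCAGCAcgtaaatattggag
dre-miR-15a-5p_R-1: tAGCAGCAcagaatggtttgt
ccr-miR-15b: tAGCAGCAcatcatggtttgt
gga-miR-15b-5p_R+1_1ss21CT: tAGCAGCAcatcatggtttgtat
ccr-miR-457a_L+1R+1: tAGCAGCAcatcaatattggca
tni-miR-15b_R-2_1ss20GT: tAGCAGCGcatcatggtttt
dre-miR-15c_L-1R+1_1ss10GA: aGCAGCGCatcatggttttca
ipu-miR-16c_R+2_1ss1CT: tCAGCAGCacggtcaatactgga
The sequence ccr-miR-15b begins gga-miR-15b-5p_R+1_1ss21CT, which is 2 bases longer. ccr-miR-15b also begins meu-miR-15c_R+2_2ss10GA11CT, which is 3 bases longer and was too low to be tested. Against ccr-miR-15b, tni-miR-15b_R-2_1ss20GT carries A8G inside the seed and G20T near its 3′ end. In ipu-miR-16c_R+2_1ss1CT the 7 letters of the miR-16 seed start at base 3. Aligned by them without gaps, 11 of 22 bases match fru-miR-16, so it is not an exact shifted copy of that one. More bases of the printed sequences line up if a gap of 1 base is allowed. The count is therefore a lower bound and does not measure how closely they are related.

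Values are normalized read counts as deposited, for 1 table entry of a sequence. For sequences with several entries the reads were divided between them, which concerned 5 of the 37 members: fru-miR-16, both miR-17 entries without a substitution suffix (ccr-miR-17-5p and ccr-miR-17-3p) and both arms of miR-92a. Sums over members below add all entries of a sequence unless said otherwise. Libraries rested on an estimated 5739279 to 8578653 reads, and 1 read was worth 0.898 to 1.19, so that 3 reads, taken as the floor, correspond to 2.69 to 3.56. Sequences of the hepatocyte families miR-122, miR-192 and miR-194 summed to 1867251 to 2958489 per library, and each of these families had values.

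Taken as classes of shared seed, the members were abundant and, in 3 of the 4 classes, steady in the values as deposited. The class of miR-17, miR-20, miR-93 and miR-106 summed to 97974, 85419 and 79307 in P. vachelli, 93955, 85772 and 91067 in Huangyou-1 and 90489, 95465 and 95465 in P. fulvidraco. The lines overlapped. The miR-25 and miR-92 class summed to 148810, 126978 and 151360.4 in P. vachelli, 126158, 130007 and 155542 in Huangyou-1 and 170408, 142740.2 and 131299.6 in P. fulvidraco, and overlapped likewise. The class of miR-15, miR-16 and miR-457 stood at 124122, 128632 and 124867 in P. vachelli, 113355, 104735 and 119380.4 in Huangyou-1 and 119200.6, 127532 and 127949 in P. fulvidraco. Here the hybrid lay below P. vachelli in 3 of 3 libraries, and hybrid library 3 lay just above P. fulvidraco library 1. The miR-19 class was smaller and varied more: 15565, 10893 and 6365 in P. vachelli, 16918, 16337 and 21741 in Huangyou-1 and 14222, 22318 and 18289 in P. fulvidraco. The 3 hybrid libraries lay above the 3 of P. vachelli, while P. vachelli library 1 lay above P. fulvidraco library 1. As a percentage of the miR-17 class of the same library, which needs no scaling, the miR-19 class stood at 12.2 ± 3.96 in P. vachelli, 20.3 ± 3.13 in Huangyou-1 and 19.4 ± 3.84 in P. fulvidraco (SD, n = 3). As a share of the library total, the miR-17 class held 0.945% to 1.18% in P. vachelli and 1.35% to 1.52% in the other lines. The miR-25 and miR-92 class held 1.65% to 1.80% and 1.91% to 2.55%. The miR-19 class held 0.0758% to 0.1871% and 0.2125% to 0.3565%. In each of these, P. vachelli lay below every other library, while the class of miR-15, miR-16 and miR-457 overlapped between P. vachelli and the hybrid.

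**Figure D1:**
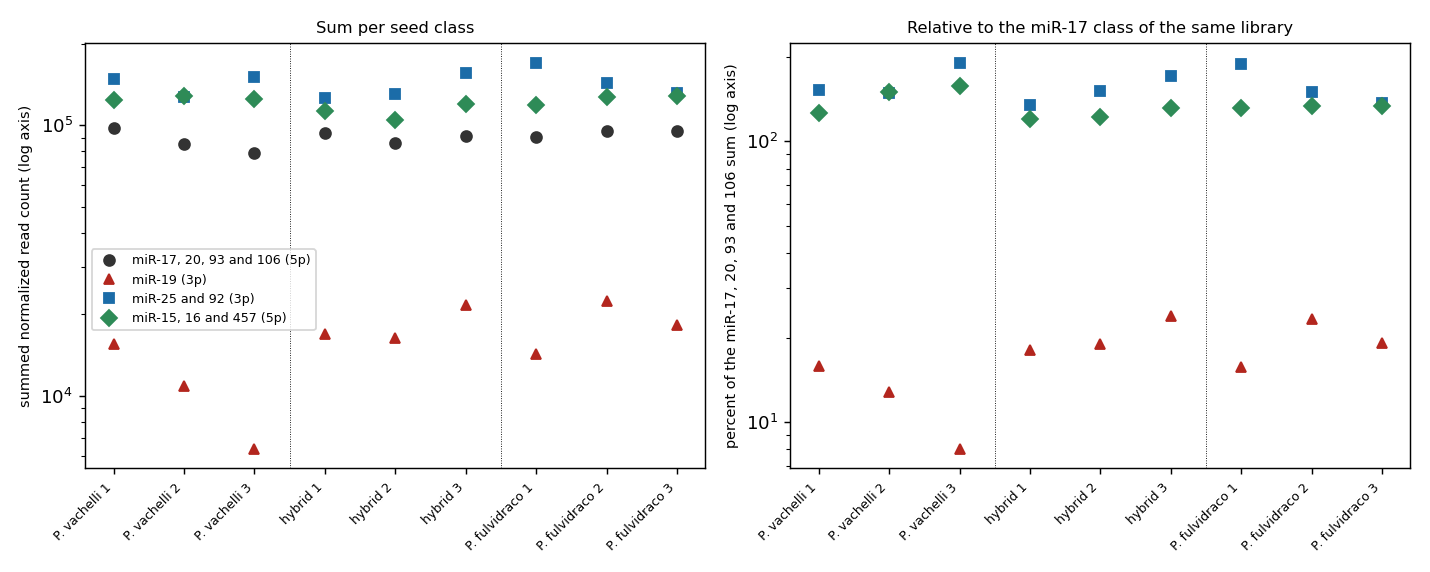
The left panel plots the summed normalized read count of each seed class per library on a log axis, and the right panel the same sums as a percentage of the miR-17, miR-20, miR-93 and miR-106 class of that library. The miR-19 class is lowest in P. vachelli library 3, at 6365, and the other classes stay in narrow bands.

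The growth-promoting 17-92 group was then set against the 15/16 group within each library. With 1 entry per sequence, the ratio of the summed groups was 2.58, 2.03 and 2.08 in P. vachelli, 2.45, 2.54 and 2.38 in Huangyou-1 and 2.54, 2.51 and 2.45 in P. fulvidraco. P. vachelli libraries 2 and 3 were low, but library 1 was the highest of all 9, so the lines overlapped. Means were 2.23 ± 0.303, 2.46 ± 0.0832 and 2.50 ± 0.0458 (SD, n = 3), and the differences between lines were within the spread of P. vachelli. With all entries added the ratio was 2.13, 1.75 and 1.91 in P. vachelli, 2.10, 2.23 and 2.26 in Huangyou-1 and 2.32, 2.05 and 1.93 in P. fulvidraco. Means were then 1.93 ± 0.190 in P. vachelli, 2.20 ± 0.0830 in Huangyou-1 and 2.10 ± 0.201 in P. fulvidraco. P. fulvidraco library 1 was then the highest in place of P. vachelli library 1, and the lines still overlapped. The ratio from 1 entry also depended on the member with the highest value per entry in each group, bta-miR-25 and fru-miR-16. When entries are added, xtr-miR-92a_R+1 is the most abundant of the 17-92 group, at a mean of 94460 against 37606 for bta-miR-25. Without bta-miR-25 and fru-miR-16 the ratio from 1 entry was 6.05, 3.77 and 3.31 in P. vachelli, 4.80, 4.94 and 3.96 in Huangyou-1 and 5.29, 6.44 and 6.90 in P. fulvidraco. The 3 hybrid libraries then lay below the 3 of P. fulvidraco, and P. vachelli overlapped both. No test was made on these ratios because the members were chosen with earlier results known. As a share of the library total, the 17-92 group was lower in P. vachelli than in every other library. It held 2.84% to 3.18% in P. vachelli, 3.67% to 4.07% in Huangyou-1 and 3.60% to 4.19% in P. fulvidraco. The 15/16 group held 1.49% to 1.67%, 1.65% to 1.82% and 1.78% to 2.04%, with the hybrid overlapping both parents. These shares move with the abundant liver miRNAs of the total as well as with the members.

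**Figure D2:**
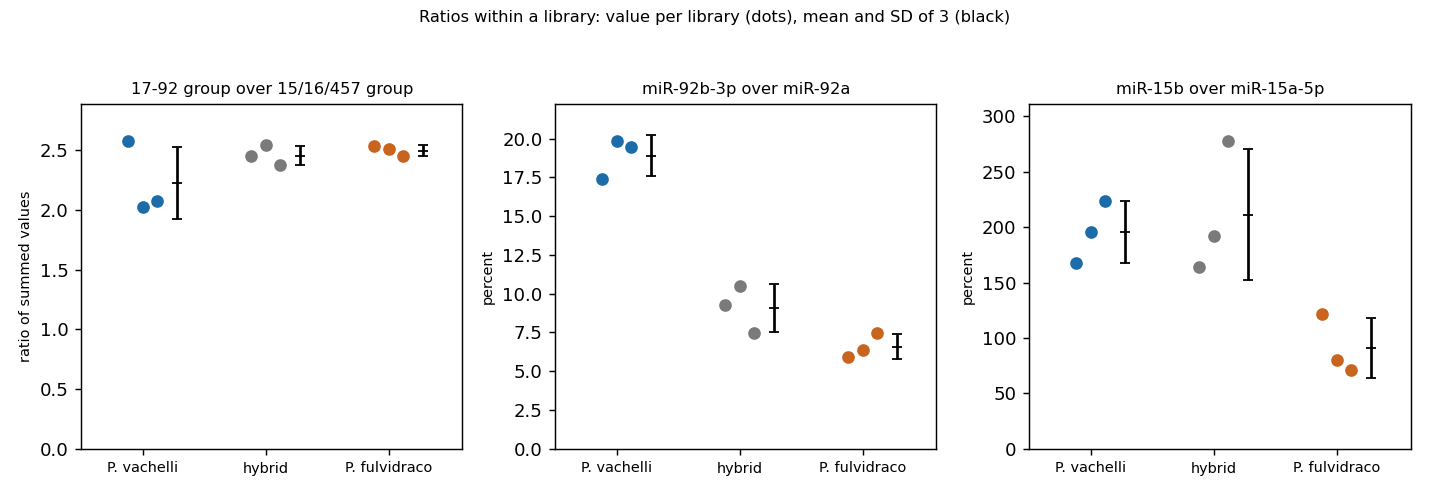
Each dot is 1 library, and black marks give the mean and SD of the 3 libraries of a line, for the ratio of the 17-92 group to the 15/16 group (1 entry per sequence) and for 2 pairs of members, in percent. The group ratio overlaps between lines, whereas miR-92b relative to miR-92a is 17.4% to 19.8% in P. vachelli and at most 10.5% elsewhere.

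Between the parents, 8 of 29 members differed, 3 higher and 5 lower in P. vachelli, by limma on log2(value + 1) with Benjamini-Hochberg adjustment over all 278 tested sequences. That is 27.6% of the members, against 51.4% of all sequences tested, of which 30.9% were higher and 20.5% lower. The median log2 fold change was -0.12 over the members and -0.05 over all. The count fell to 5 without P. vachelli library 2 or 3 and to 4 without P. fulvidraco library 3. In the 17-92 group 1 member was higher and 4 were lower of 18, and in the 15/16 group 2 were higher and 1 lower of 11. Libraries of the parents did not overlap for 12 members (41.4%), where the figure over all sequences was 59.4%.

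The clearest member was ssa-miR-92b-3p, which in mammals comes from a locus outside the cluster. It stood at 16526, 15362 and 17819 in P. vachelli, 7688, 9198 and 8307 in Huangyou-1 and 7255, 6172 and 6377 in P. fulvidraco. Each line lay apart from the others, with the hybrid between the parents and nearer P. fulvidraco. P. vachelli was higher than P. fulvidraco by a log2 fold change of 1.33 (SE 0.11, adjusted p = 1.26e-05, limma). Its near relative xtr-miR-92a_R+1, which has the same seed, was not called in any comparison of the values as deposited. With libraries scaled to equal totals it was called lower in P. vachelli than in P. fulvidraco (log2 fold change -0.50, adjusted p = 0.0167, limma). It was then also higher in the hybrid than in P. vachelli (0.43, adjusted p = 0.0408, limma). It stood at 31707, 25837 and 30492 in P. vachelli, 27603, 29172 and 37080 in Huangyou-1 and 40723, 32384 and 28383 in P. fulvidraco, and the lines overlapped. Relative to miR-92a with its 3 entries added, miR-92b was at 18.9% ± 1.32, 9.09% ± 1.53 and 6.59% ± 0.803 in P. vachelli, the hybrid and P. fulvidraco (SD, n = 3). This ratio is free of the scaling of libraries, and P. vachelli was apart from both other lines in it.

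Both tested length forms of miR-15b were higher in P. vachelli than in P. fulvidraco. The form ccr-miR-15b stood at 11759, 17004 and 20876 in P. vachelli, 12995, 13502 and 21589 in Huangyou-1 and 11074, 7298 and 6009 in P. fulvidraco (log2 fold change between the parents 1.03, SE 0.29, adjusted p = 0.0137, limma). All 6 libraries of P. vachelli and the hybrid lay above the 3 of P. fulvidraco. The longer form gga-miR-15b-5p_R+1_1ss21CT ran in parallel at 623, 784 and 920.1 in P. vachelli, 626, 630.5 and 1005 in Huangyou-1 and 486, 415 and 362 in P. fulvidraco (parental log2 fold change 0.87, SE 0.22, adjusted p = 0.0092, limma). It made up 4.39% to 6.03% of the shorter form in every library, so the forms are not independent of each other. The miR-15a sequence with the same seed, dre-miR-15a-5p_R-1, stayed between 7028 and 9343 over the 9 libraries. As a percentage of it, ccr-miR-15b was at 195.4 ± 28.1 in P. vachelli, 211 ± 58.9 in Huangyou-1 and 91.0 ± 26.8 in P. fulvidraco (SD, n = 3). For ccr-miR-15b the call between the parents did not hold once P. fulvidraco library 3 was left out (adjusted p = 0.0536), and both forms missed the threshold when libraries were scaled to equal totals (0.0519 for the short form and 0.0543 for the long form).

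The largest fold change among members was that of the rare ipu-miR-16c_R+2_1ss1CT, printed above. It stood at 15.1, 8.98 and 7.12 in P. vachelli, 22.2, 19.7 and 31.2 in Huangyou-1 and 31.6, 63.2 and 70.2 in P. fulvidraco. The 3 lines did not overlap, though hybrid library 3 and P. fulvidraco library 1 were nearly level. P. vachelli was lower than P. fulvidraco by a log2 fold change of -2.28 (SE 0.37, adjusted p = 0.000774, limma), on a scale where 1 read is worth about 1. The far more abundant fru-miR-16 stood at 49228, 46899 and 43141 in P. vachelli, 42263, 38809 and 40690.1 in Huangyou-1 and 45934, 52217 and 53753 in P. fulvidraco. The parents overlapped in it.

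Of the 5 tested sequences of miR-19, a member of the cluster with a seed of its own, 3 were lower in P. vachelli. On the 3′ arm, ssa-miR-19c-3p stood at 2495, 1805 and 1039.9 in P. vachelli, 2886, 2919.7 and 3791 in Huangyou-1 and 2549, 4084 and 3114 in P. fulvidraco (log2 fold change between the parents -0.93, SE 0.30, adjusted p = 0.0265, limma). P. vachelli library 3 was the lowest of all, and library 1 came close to the lowest P. fulvidraco library without overlap. The most abundant of them, dre-miR-19d-3p_R-1, stood at 10812, 7502 and 4548 in P. vachelli, 11557, 10979 and 14218 in Huangyou-1 and 9664, 14430.2 and 12598 in P. fulvidraco, where the parents overlapped (log2 fold change -0.75, SE 0.28, adjusted p = 0.0476, limma). The third, aca-miR-19a-3p_R+1, ran from 777 to 2257 in P. vachelli and from 2009 to 3804 in the other lines together, and was not called (log2 fold change -0.94, adjusted p = 0.0614, limma). It was called without P. vachelli library 1 (adjusted p = 0.0163) or P. fulvidraco library 1 (0.0437), and its log2 fold change was -0.51 without P. vachelli library 3. The rare opposite arm ssa-miR-19c-4-5p_R+1_2ss17TA21AT was steadier within lines. It stood at 40.8, 47.6 and 40.3 in P. vachelli, 72.5, 80.8 and 91.4 in Huangyou-1 and 93.9, 80.04 and 62.8 in P. fulvidraco (parental log2 fold change -0.85, SE 0.20, adjusted p = 0.00524, limma), with P. vachelli below all other libraries. For the 3′ arms the calls depended on single libraries. That of ssa-miR-19c-3p was lost without P. vachelli library 2 (adjusted p = 0.0537) or 3 (0.0681, log2 fold change -0.59), or P. fulvidraco library 2 (0.0973) or 3 (0.0586). That of dre-miR-19d-3p_R-1 was lost without P. vachelli library 2 (0.0892) or 3 (0.141, log2 fold change -0.42), any of hybrid libraries 1 (0.0663), 2 (0.0591) and 3 (0.0511), or P. fulvidraco library 2 (0.154) or 3 (0.108). A line that is not compared enters only through the filter, the shared spread and the adjustment. Leaving out a hybrid library kept the log2 fold change of dre-miR-19d-3p_R-1 at -0.75.

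The remaining parental difference was in the minor arm of miR-20a. ssa-miR-20a-2-3p_R-1 stood at 188, 198 and 186 in P. vachelli, 254, 215.9 and 189.7 in Huangyou-1 and 293, 238 and 257 in P. fulvidraco (parental log2 fold change -0.45, SE 0.15, adjusted p = 0.0327, limma). The parents did not overlap. The major arm ssa-miR-20a-5p stood at 19143, 16867 and 15071 in P. vachelli, 19188, 17525 and 18221 in Huangyou-1 and 17773, 18783 and 17884 in P. fulvidraco, with overlap between all lines. The minor-arm call was lost without P. vachelli library 1 (adjusted p = 0.0727), 2 (0.0656) or 3 (0.0737), hybrid library 2 (0.0517), or P. fulvidraco library 1 (0.0966) or 3 (0.0694).

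**Figure D3:**
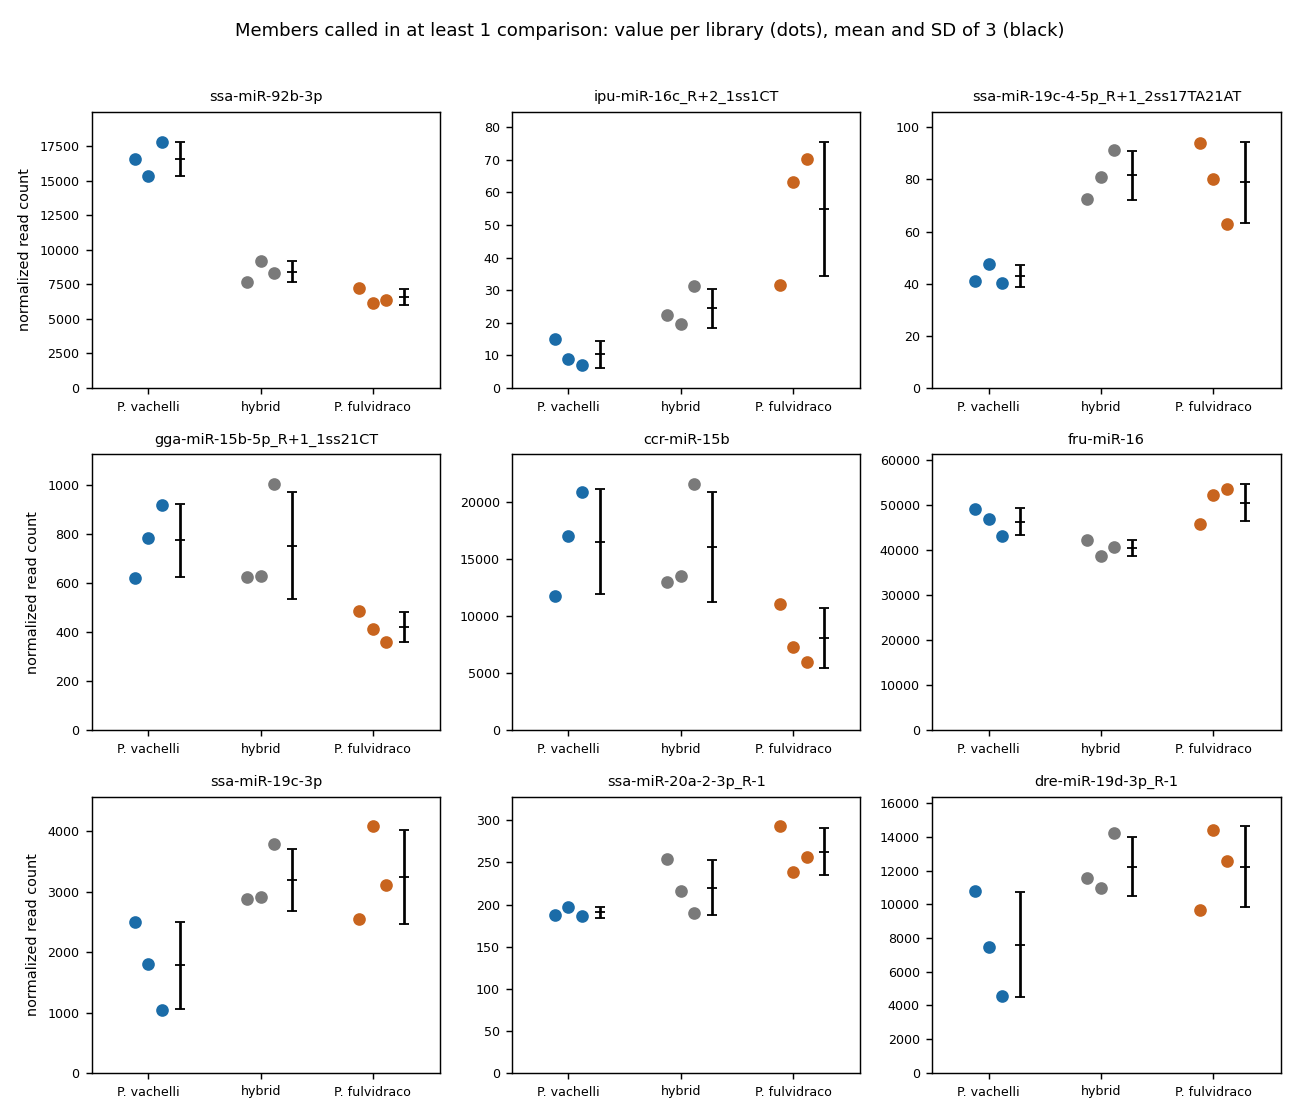
Normalized read counts of the 9 members called in at least 1 comparison, with 1 dot per library and the mean and SD of 3 libraries in black, on linear axes that start at 0. For miR-92b, P. vachelli runs from 15362 to 17819 and the other lines reach 9198 at most.

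Single abundant sequences of miR-17, miR-25 and miR-20a varied least among the tested members. ccr-miR-17-5p_1ss1CT, the miR-17 sequence that begins with T, stood at 28486, 25843 and 25416 in P. vachelli, 28608, 25611 and 27291 in Huangyou-1 and 28779.9, 29368 and 29884 in P. fulvidraco. P. fulvidraco was above the others by a narrow margin. The highest of the 9 libraries was 1.18 times the lowest, the smallest such ratio of the 29 tested members, while the ratio ran up to 9.86 in ipu-miR-16c_R+2_1ss1CT. The form ccr-miR-17-5p, which begins with C, ran from 7099 to 9063 per entry. With its entries added it was 51.6% to 63.0% of the form that begins with T. bta-miR-25, known in mammals to act on the inhibitor CDKN1C, stood at 37163, 34106 and 42066 in P. vachelli, 35662, 33292 and 35996 in Huangyou-1 and 40984, 39417 and 39772 in P. fulvidraco. dre-miR-93_R+1, hosted in mammals by an intron of the replication helicase gene MCM7, stood at 35621, 28494 and 24295 in P. vachelli, 28620.0, 27487 and 28430.4 in Huangyou-1 and 25791, 31173 and 32047 in P. fulvidraco. In miR-25 the 3 hybrid libraries lay below the 3 of P. fulvidraco while P. vachelli overlapped both, and in miR-93 all lines overlapped. dre-miR-18a_R+1, a cluster member with a seed of its own, was far less abundant, at 454, 568 and 552 in P. vachelli, 659, 594 and 688 in Huangyou-1 and 642, 511 and 481 in P. fulvidraco. The hybrid lay above P. vachelli in 3 of 3 libraries. None of these 5 was called in any comparison of the values as deposited, which does not show that the lines are equal in them. With libraries scaled to equal totals, all but dre-miR-93_R+1 were called in some comparison with P. vachelli.

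The rarer member of the miR-17 seed class, cgr-miR-106b-5p_R-1, stood at 14.0, 15.7 and 17.8 in P. vachelli, 57.6, 46.3 and 16.8 in Huangyou-1 and 16.7, 34.6 and 23.6 in P. fulvidraco. Hybrid libraries 1 and 2 were high and library 3 was at the level of P. vachelli (hybrid against P. vachelli: log2 fold change 1.13, SE 0.44, adjusted p = 0.0727, limma; 0.00338 without hybrid library 3). Of the 15/16 group, the fish miRNA ccr-miR-457a_L+1R+1 stood at 6250.3, 8331 and 7437 in P. vachelli, 7299, 5944 and 7615 in Huangyou-1 and 6659, 6247 and 5667 in P. fulvidraco, overlapping throughout. The sequence with A8G in its seed, tni-miR-15b_R-2_1ss20GT, stood at 37.3, 59.3 and 72.4 in P. vachelli, 57.9, 45.5 and 42.4 in Huangyou-1 and 50.7, 35.7 and 27.7 in P. fulvidraco, and was not called.

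Opposite arms were a small part of most families. With all entries added, the 3′ arm held 0.261% to 0.406% of miR-17, 0.973% to 1.62% of miR-20, 0.140% to 0.304% of miR-15 and 0.0265% to 0.0723% of miR-16. It held more of miR-18, at 11.5% to 18.1%, and of the rare miR-106, at 4.76% to 12.7%, where the 3′ arm was too low to be tested. The 5′ arm held 0.303% to 0.727% of miR-19 and 1.23% to 2.40% of miR-25. Of these arms, ccr-miR-17-3p stood at 61.1, 51.3 and 48.8 in P. vachelli, 57.9, 66.2 and 71.1 in Huangyou-1 and 72.3, 63.7 and 89.0 in P. fulvidraco (log2 fold change between the parents -0.47, adjusted p = 0.0656, limma). The parents did not overlap in it. ssa-miR-18a-3p_R-2_2ss10GA11TG stood at 99.96, 98.8 and 84.2 in P. vachelli, 86.1, 76.9 and 98.3 in Huangyou-1 and 115, 76.1 and 64.7 in P. fulvidraco, with overlap. ssa-miR-25-3-5p_1ss23CT stood at 843, 633 and 526 in P. vachelli, 618, 817 and 702 in Huangyou-1 and 697, 686 and 743 in P. fulvidraco, also with overlap. In the 15/16 group, dre-miR-15a-3p_1ss19GA stood at 24.7, 24.2 and 15.4 in P. vachelli, 27.1, 29.6 and 52.0 in Huangyou-1 and 36.2, 29.6 and 25.9 in P. fulvidraco, so that P. vachelli was below every other library. ssa-miR-16a-2-3p_L-1_2ss13GC20TC stood at 31.2, 29.6 and 41.5 in P. vachelli, 44.5, 56.2 and 54.4 in Huangyou-1 and 40.9, 27.7 and 45.2 in P. fulvidraco (hybrid against P. vachelli: log2 fold change 0.59, SE 0.24, adjusted p = 0.0819, limma). The hybrid lay above P. vachelli in 3 of 3 libraries and overlapped P. fulvidraco. The other 3 tested members, dre-miR-15c_L-1R+1_1ss10GA, ssa-miR-15c-2-3p_2ss2GA9CA and aca-miR-19a-5p_L-1R+1_1ss20TC, ran from 5.37 to 39.5 and were not called.

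The 8 members under the minimum were low throughout. The highest value of any of them was 10.03, for dre-miR-17a-2-3p_1ss20AC in P. vachelli library 1. meu-miR-15c_R+2_2ss10GA11CT reached 8.09, gga-miR-15b-3p_L+1R-1_1ss20TC 6.77, cgr-miR-106b-3p 5.80, ccr-miR-457b_L+1_1ss17CT 3.47, hsa-miR-106b-5p_R-2 2.96, dre-miR-92a-2-5p_2ss14CT15CT 1.93 and dre-miR-19d-5p_R-1_2ss14GC19GT 1.16.

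Compared with P. vachelli, its father's species, Huangyou-1 had more miR-19c and miR-16c and less miR-92b. By limma 4 of 29 members differed (13.8%, against 34.9% of all sequences tested), 3 higher and 1 lower (15.5% and 19.4% of all sequences), with a median log2 fold change of 0.11 over the members and -0.01 over all. ssa-miR-92b-3p was lower by a log2 fold change of -0.98 (SE 0.11, adjusted p = 0.000263, limma). ssa-miR-19c-4-5p_R+1_2ss17TA21AT was higher at 0.91 (SE 0.20, adjusted p = 0.00553), and ssa-miR-19c-3p at 0.92 (SE 0.30, adjusted p = 0.0364). ipu-miR-16c_R+2_1ss1CT was higher at 1.19 (SE 0.37, adjusted p = 0.0321). The count fell to 2 without P. vachelli library 2 or 3 or hybrid library 1. For each of these 4 the 3 hybrid libraries lay apart from the 3 of P. vachelli, as they did for 11 of 29 members (37.9%, against 46.8% of all sequences). For the other 3′ arms of miR-19 the 3 hybrid libraries also lay above the 3 of P. vachelli, but the log2 fold changes did not pass the test: 0.76 (adjusted p = 0.0607) for dre-miR-19d-3p_R-1 and 1.01 (adjusted p = 0.0645) for aca-miR-19a-3p_R+1, by limma on the log2 scale. Both were called without P. vachelli library 1 (adjusted p = 0.00882 and 0.0181), and without P. vachelli library 3 the log2 fold changes were 0.43 and 0.58. The call of ssa-miR-19c-3p was lost without P. vachelli library 2 (adjusted p = 0.0744) or 3 (0.0942, log2 fold change 0.58), any of hybrid libraries 1 (0.0649), 2 (0.0643) and 3 (0.0938), or P. fulvidraco library 3 (0.0525), and that of ipu-miR-16c_R+2_1ss1CT without P. vachelli library 2 (0.0935) or 3 (0.0982) or hybrid library 1 (0.0622) or 3 (0.0875).

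Both comparisons with P. vachelli depended on the scaling of the libraries. Equal totals moved the median log2 fold change of all sequences to -0.35 between the parents and to 0.34 for the hybrid against P. vachelli, and the members moved with it. Of all 282 sequences then tested, 53 were higher and 88 lower in P. vachelli than in P. fulvidraco (18.8% and 31.2%). In the hybrid against P. vachelli 89 were higher and 26 lower (31.6% and 9.22%). Between the parents 15 of 29 members were called, 1 higher and 14 lower. In the hybrid against P. vachelli 17 of 29 members were called, 16 higher and 1 lower. Among them were ccr-miR-17-5p_1ss1CT at -0.45 and ssa-miR-20a-5p at -0.40 between the parents, and 0.37 and 0.45 in the hybrid, which relative to the median of all sequences are close to 0. ssa-miR-92b-3p was the 1 member higher in P. vachelli under this scaling, at 1.03, and it remained lower in the hybrid, at -0.64. Of the erythroid families miR-144 and miR-451, 5 of 8 tested sequences were lower and 2 higher in P. vachelli than in P. fulvidraco. Over all sequences 20.5% were lower and 30.9% higher. With equal totals 6 of the 8 were lower (75.0%, against 31.2%) and 2 higher, where 18.8% of all sequences were higher. As deposited, the erythroid families summed to 37915 to 42304 in P. vachelli, 58721 to 97610 in Huangyou-1 and 78963 to 94637 in P. fulvidraco. This was in the direction of miR-19 and miR-16c, and neither family was at 0. Leukocyte families (miR-142, miR-150, miR-155 and miR-223, none at 0) summed to 16615 to 17999, 20000.4 to 21001 and 19550 to 20133, with 2 of 7 sequences lower in P. vachelli than in P. fulvidraco. That is 28.6%, against 20.5% of all sequences, or against 31.2% with equal totals, where the count was the same. In the values as deposited, several lists summed higher in P. vachelli, as miR-92b did, with no overlap with the other lines. Sums of these lists were not compared at equal totals. Under that scaling fewer sequences of each of these lists were called higher in P. vachelli than in P. fulvidraco. Hepatocyte families summed to 2446606 to 2958489 in P. vachelli and to at most 2214881 elsewhere. Of 8 sequences 4 were higher (50.0%, against 30.9% of all sequences) and 0 lower than in P. fulvidraco. With equal totals 1 was higher (12.5%, against 18.8%). Epithelial families (miR-200 and miR-429, with no value for miR-141) summed to 21260 to 24025 and to at most 18724 elsewhere. Of 4 sequences 3 were higher than in P. fulvidraco (75.0%, against 30.9% of all sequences), and 0 with equal totals (against 18.8%). For the endothelial family miR-126, 5 of 5 sequences were higher in P. vachelli than in P. fulvidraco, where 30.9% of all sequences were. With equal totals 4 were higher (80.0%, against 18.8%). In the values as deposited, 4 of 5 were lower in Huangyou-1 than in P. vachelli (80.0%, against 19.4% of all sequences). The family summed to 337366 to 398038 in P. vachelli, 218022 to 249697 in Huangyou-1 and 228046 to 259365 in P. fulvidraco. Mesenchymal families (miR-143, miR-145 and miR-199, none at 0) summed to 381150 to 421061, 298032 to 361256 and 291085 to 339433 in the same order. Of 10 sequences 7 were higher in P. vachelli than in P. fulvidraco, where 30.9% of all sequences were. With equal totals 3 of 10 were higher, where 18.8% of all sequences were. Muscle families (miR-1, miR-133, miR-206 and miR-499, none at 0) were low, at 826 to 884, 1570 to 3416 and 1812 to 2365, and did not move as 1. In P. vachelli against P. fulvidraco 3 of 6 sequences were lower (50.0%, against 20.5% of all sequences), among them aca-miR-1a-3p (log2 fold change -1.90) and aca-miR-133a_L-1R+1 (-1.31). The other called ones, dre-miR-206-3p (1.59) and aca-miR-499-5p_R-1 (mean 40.8 in P. vachelli and under the floor in P. fulvidraco, at 2.62), were higher (33.3%, against 30.9%). Equal totals left the counts of the muscle families between the parents as they were, where 31.2% of all sequences were lower and 18.8% higher. The part of these cell types in the differences was not tested. In whole liver, fewer cells of a type and less of a miRNA per cell cannot be told apart.

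Compared with P. fulvidraco, its mother's species, Huangyou-1 differed in miR-15b and miR-16, and no member of the 17-92 group was called. By limma 3 of 29 members were called (10.3%, against 19.4% of all sequences tested), 2 higher and 1 lower (12.9% and 6.47% of all sequences), with a median log2 fold change of 0.01 over the members and 0.06 over all. In the 17-92 group 0 of 18 were called by limma, with 1 at an unadjusted p under 0.05. ccr-miR-15b was higher in the hybrid by a log2 fold change of 0.99 (SE 0.29, adjusted p = 0.0374, limma) and gga-miR-15b-5p_R+1_1ss21CT by 0.81 (SE 0.22, adjusted p = 0.0314), both at the level of P. vachelli. fru-miR-16 was lower at -0.32 (SE 0.09, adjusted p = 0.0359), with 3 of 3 hybrid libraries below every library of either parent. Libraries did not overlap for 8 of 29 members (27.6%, against 36.3% of all sequences). The hybrid also lay apart from P. fulvidraco in ssa-miR-92b-3p (log2 fold change 0.35, adjusted p = 0.057, limma) and ipu-miR-16c_R+2_1ss1CT (-1.09, adjusted p = 0.0685, limma), which missed the threshold. The first was called without hybrid library 1 (adjusted p = 0.0428) or P. fulvidraco library 1 (0.0418), and the second without P. fulvidraco library 1 (0.025).

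All 3 calls against P. fulvidraco were close to the threshold and depended on single libraries. The count was 0 by limma without P. vachelli library 2 or P. fulvidraco library 2 or 3 (5, 4 and 4 members at an unadjusted p under 0.05), 1 without hybrid library 2 or 3, and 5 without P. fulvidraco library 1. P. vachelli library 2 enters here only through the filter, the shared spread and the adjustment. Without that library the adjusted p by limma was 0.0604 for ccr-miR-15b, 0.0547 for gga-miR-15b-5p_R+1_1ss21CT and 0.0604 for fru-miR-16. Without hybrid library 3 it was 0.101, 0.0728 and 0.0728, without P. fulvidraco library 2 it was 0.108, 0.0898 and 0.11, and without P. fulvidraco library 3 it was 0.133, 0.113 and 0.129, in the same order. Without hybrid library 2 it was 0.0596 for ccr-miR-15b and 0.133 for fru-miR-16. The call of fru-miR-16 was also lost with equal totals (adjusted p = 0.0917), where 3 members were called, all higher in the hybrid, with ssa-miR-92b-3p added to the forms of miR-15b. Of all 282 sequences tested under that scaling, 37 were higher and 14 lower in the hybrid.

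**Figure D4:**
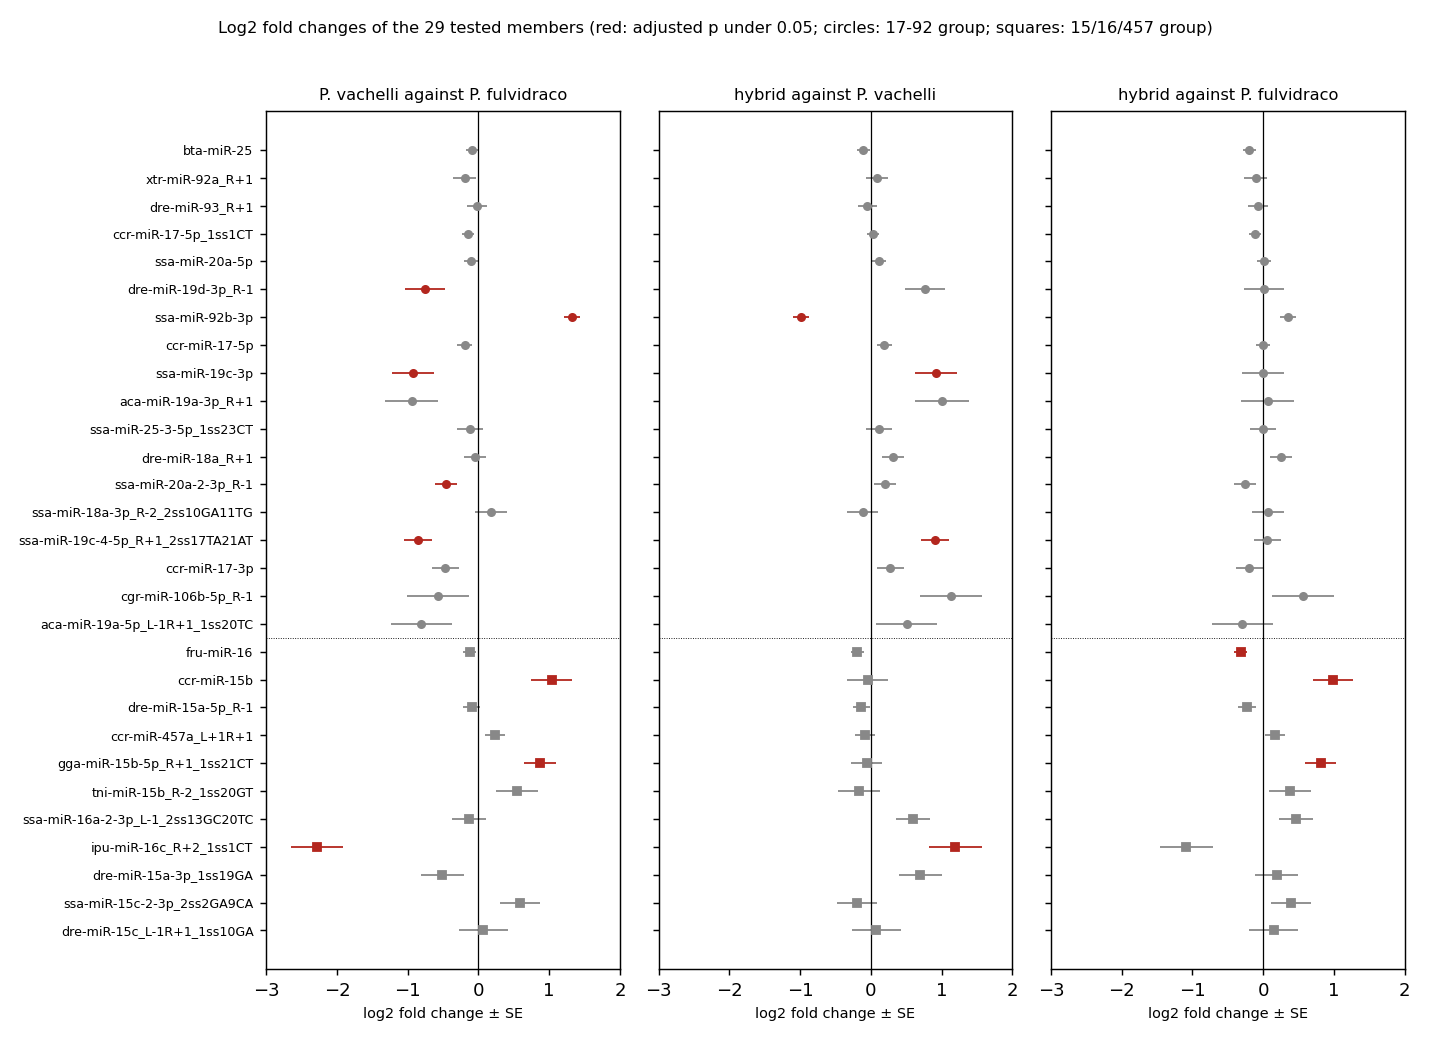
Log2 fold changes with their SE for the 29 tested members in the 3 pairwise comparisons, ordered by mean level within the 17-92 group (circles, above the dotted line) and the 15/16 group (squares). Red marks an adjusted p under 0.05: 8 members between the parents, 4 for the hybrid against P. vachelli and 3 against P. fulvidraco.

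Relative to the mid-parent value (halfway between the parental log2 means) 2 of 29 members were called (6.9%, against 18.7% of all sequences tested), both lower in the hybrid, where 10.1% of all sequences were higher and 8.63% lower. The median log2 fold change was 0.09 over the members and 0.06 over all. The called members were fru-miR-16 at -0.25 (SE 0.08, adjusted p = 0.0494, limma) and ssa-miR-92b-3p at -0.32 (SE 0.10, adjusted p = 0.0484, limma). The hybrid lay below both parents in miR-16 and between them in miR-92b. The count was 0 or 1 with any library left out. Both calls stood just under the threshold and were lost under 13 and 15 of 18 other settings, with adjusted p up to 0.653 and 0.368 under equal totals, where 3 other members were called, all higher in the hybrid. Of all 282 sequences tested under that scaling, 56 were higher and 8 lower than the mid-parent. Each library left out in turn ended the call of ssa-miR-92b-3p (adjusted p 0.0574 to 0.139). That of fru-miR-16 was lost without P. vachelli library 1 (0.0763) or 2 (0.104), any hybrid library (0.0603 to 0.195), or P. fulvidraco library 2 (0.0998) or 3 (0.0924). No departure of a member from the mid-parent held across the settings tried. The comparisons share libraries, so their results for a member are not independent of each other.

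Other miRNA families known to act on the cell cycle were counted beside the members. Of families that restrain it, miR-449, miR-497, miR-503 and miR-322 had no value, and the miR-15 relatives miR-195 and miR-424 had no tested sequence. The others, let-7, miR-34, miR-26 and miR-203, had 22 tested sequences. Between the parents 7 of these 22 were higher (31.8%, against 30.9% of all sequences) and 5 lower (22.7%, against 20.5%) in P. vachelli, near the shares of all sequences. In the hybrid 3 were higher (13.6%, against 15.5%) and 7 lower (31.8%, against 19.4%) than in P. vachelli, and 2 higher (9.09%, against 12.9%) and 3 lower (13.6%, against 6.47%) than in P. fulvidraco. Relative to the mid-parent 2 were higher (9.09%, against 10.1%) and 8 lower (36.4%, against 8.63%). With equal totals 5 were higher (22.7%, against 19.9%) and 3 lower (13.6%, against 2.84%). The p53-responsive dre-miR-34a averaged 476 ± 95.3 in P. vachelli, 486 ± 60.8 in Huangyou-1 and 219 ± 24.4 in P. fulvidraco (SD, n = 3), with P. fulvidraco lowest, as in miR-15b. The far more abundant ssa-let-7a-5p and dre-miR-26a-5p were lowest in the hybrid instead. In the same order their means were 1032899, 724548 and 840036, and 215746, 153266 and 176362. Of families that promote it (miR-21, miR-130, miR-155, miR-221, miR-222 and miR-301, with 16 tested sequences), 6 were higher (37.5%, against 30.9% of all sequences) and 0 lower in P. vachelli than in P. fulvidraco. In Huangyou-1 0 were higher and 5 lower (31.2%, against 19.4%) than in P. vachelli, and 3 higher (18.8%, against 12.9%) and 0 lower than in P. fulvidraco. Of these 16 promoting sequences, 0 were higher and 4 lower than the mid-parent, where 10.1% of all sequences were higher and 8.63% lower. With equal totals 4 were higher than the mid-parent, where 19.9% of all sequences were, and 3 lower (18.8%, against 2.84%). The splits between lines also moved with equal totals. In P. vachelli against P. fulvidraco, 2 restraining sequences were then higher (9.09%, against 18.8% of all sequences) and 7 lower (31.8%, against 31.2%). Of the 16 promoting ones, 4 were higher, where 18.8% of all sequences were, and 1 lower (6.25%, against 31.2%). In the hybrid against P. vachelli, 5 restraining sequences were higher (22.7%, against 31.6%) and 1 lower (4.55%, against 9.22%). Of the 16 promoting ones, 3 were higher (18.8%, against 31.6%) and 4 lower, where 9.22% of all sequences were.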

How the data were processed

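Per the labels' protocols, the authors made small RNA libraries from about 5 µg of total liver RNA with a TruSeq Small RNA kit, sequenced them on an Illumina HiSeq instrument and cleaned the reads with ACGT101-miR. The deposited table holds a signal per library and entry, called a normalized count in its header. How it was normalized, and against which miRNA set or genome, is not given in the sources used here, so no coordinates were assigned. Repeated entries of a sequence held equal values, and 1 was kept. Positive values under 40 of single-entry sequences fell within 0.1 read of whole multiples of 1 step for 86.4% to 93.5% of them. The step was fitted in each library to make this share large, so the share does not test it. The deposited values were not treated as counts. The floor covers counting error only, because PCR copies were not told apart.

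Tests used limma 3.58.1 (R 4.3.3, with the trend option) on log2(value + 1) for the 278 sequences that reached 10 in 3 libraries or more. Each line had its own mean and all 9 libraries shared 1 estimate of spread. P-values are two-sided and adjusted by the Benjamini-Hochberg method over all tested sequences within a comparison, at a threshold of 0.05. The fit was tested on simulated data. The members and the lists of other families were chosen with earlier results of these data known. Values in every library are given for the most abundant tested member of each family and arm and for every called member. Where a name gives no arm, it was taken from a sequence of the same family and seed if there was one. Figures were drawn with Python 3.11.15 and matplotlib 3.10.9. Alternatives covered scaling, pseudocount, filter, trend, replicate block, entries, family sums, pairs of lines fitted alone and each library left out.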

Additional observations from a re-analysis of the deposited data

How the results depend on the processing

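Across the alternatives no member called or with an adjusted p under 0.1 changed direction, and 5 of 17 calls were kept in every alternative that tested them: miR-92b and the miR-19c 5′ arm in both comparisons with P. vachelli, and miR-16c between the parents. The miR-19c 5′ arm and miR-16c were too low to be tested at a minimum of 100. Median ratios and summed entries left every count of called members as it was. Counts were 8 between the parents, 4 for the hybrid against P. vachelli, 3 against P. fulvidraco and 2 against the mid-parent. Equal totals gave 15 and 17 in the first and second of these, with 3 for the mid-parent, none of them the same sequences. A minimum of 100, which left 18 members to test in place of 29, gave 5 and 2 in the first and second comparisons. Without the filter, with 37 members tested, 2, 1 and 0 were called in the last 3 comparisons, and without the trend 1 and 0 in the last 2. Sums by family and arm, of which 20 were tested, gave 5 between the parents, 1 against P. fulvidraco and 1 against the mid-parent. With a pseudocount of 5 or 0.5 the mid-parent count was 0. Each count of 0 by limma against the mid-parent stood beside 4 or 5 members at an unadjusted p under 0.05 in these settings.

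Leaving out each library in turn gave 4 to 9 calls between the parents (5 without P. vachelli library 2 or 3, and 4 without P. fulvidraco library 3), 2 to 6 for the hybrid against P. vachelli, 0 to 5 against P. fulvidraco and 0 to 1 against the mid-parent. Replicate numbers did not pair the libraries: correlations of deviations ran from -0.421 to 0.162 over 9 pairs, and 1 of 9 libraries correlated best with its own number. The fit with the replicate block called 5, 2, 0 and 0 members in the 4 comparisons, with 5 and 4 at an unadjusted p under 0.05 in the last 2.

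The log2 ratio of the 17-92 sum to the 15/16 sum was compared between lines, first with 1 entry per sequence. P. vachelli minus P. fulvidraco gave -0.17 (-0.28 to -0.11 with single libraries left out). The hybrid minus P. vachelli gave 0.15 (0.09 to 0.26), and the hybrid minus P. fulvidraco -0.02 (-0.05 to -0.0008). Adding all entries changed these differences to -0.12, 0.19 and 0.07, so the sign of the last depended on how entries were treated. Without miR-25 and miR-16, which have the highest value per entry in their groups, the first and last differences from 1 entry were -0.55 and -0.44. From mean log2 values of tested members they were -0.31 and -0.16. The cause was not tested. Depth limits the rare members, where values of 10 rest on about 10 reads.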
